A study of Arabidopsis thaliana with 27 samples.

Results

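The transcripts of the mitochondrial genome were measured in sorted root cells of Arabidopsis thaliana (ecotype Col-0). They were taken as every gene entry whose identifier starts with ATMG, 152 of the 34262 gene entries in each count table, beside 33977 nuclear and 133 plastid entries. The series holds 27 RNA-seq libraries from 3 cell types, with 3 libraries for each of the labels flg22, Pep1 and mock in each cell type. flg22 is a peptide of bacterial flagellin and Pep1 is a plant danger peptide, both of which trigger root immunity, and mock roots received water. Cells were sorted by green fluorescence from 3 marker lines: pGL2:GFP for non-hair epidermis cells, pCORTEX:GFP for cortex and the enhancer trap E3754 for xylem-pole pericycle. Plants were grown for 10 days according to the labels and for longer according to the methods text, and roots were treated whole, before protoplasts were made and sorted, and every library therefore passed through cell wall digestion. The sample labels give a dose of 1 mM for 1 h, whereas the series design gives 1 uM and sampling at 2 h. The methods text has the 1 uM dose, applied for 1 h, with cells sampled 2 h after treatment.

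Plant mitochondria keep a small genome of their own. It encodes ribosomal RNAs and transfer RNAs, a few subunits of the respiratory complexes I, III and IV and of the ATP synthase, proteins that attach haem to cytochrome c, and part of the ribosome, whereas most respiratory subunits are encoded in the nucleus and imported. Ribosomal RNA makes up most of the RNA of mitochondria. In roots, which do not photosynthesise, respiration in mitochondria is the main source of ATP.

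Arabidopsis chromosome 2 carries a nuclear copy of most of the mitochondrial genome, and this bears on the counts of every gene that it repeats. In the RefSeq assembly TAIR10.1, 67.64% of all stretches of 100 bases of the mitochondrial genome (367808 bases) also occurred in the nuclear chromosomes. The mitochondrial sequence of this assembly is not that of TAIR10, to which the reads were aligned. The matches given here therefore hold for TAIR10.1 and were not computed for the sequence that was counted. Of the nuclear matches, 99.99% lay in 1 block of 270728 bases, chr2:3239038-3509765. All such stretches of atp1, atp8, atp9, cob, cox3, nad3, nad6 and rps12 occurred in the nucleus too, against none of those of atp4, cox1, nad4L, nad9 and the 3 ribosomal RNA genes rrn5, rrn18 and rrn26. The first 100 bases of cox3, which encodes subunit 3 of cytochrome c oxidase, are shown because they occurred 1 time in the nucleus and 1 time in the mitochondrion, letter for letter. The nuclear copy lies inside AT2G07687, at chr2:3312552-3312651 on the minus strand, and capitals mark the start codon:
cox3: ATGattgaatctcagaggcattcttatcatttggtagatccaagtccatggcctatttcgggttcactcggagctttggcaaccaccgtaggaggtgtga
Where the reference used for alignment also shares such a stretch, a read pair within it matches both genomes equally. Such a pair is either set aside as aligned to several places or placed only by bases outside the stretch.

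The mitochondrial identifiers are not paired with gene names in the count tables. Notes on nuclear copies in the RefSeq annotation name 53 of the 152 identifiers, 24 of them with a description of the protein, and these descriptions are used below. The remaining identifiers, among them the most abundant ones, are given by identifier only. ATMG00020, ATMG01380 and ATMG01390 were grouped as ribosomal RNA and set aside together in some settings, an assignment that the reference annotation does not give. The strand of the reads was not used in counting, so reads of overlapping genes on opposite strands cannot be told apart, and near-identical copies make single identifiers uncertain.

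Gene counts per library ranged from 4172741 to 17188823. Reads aligned to several places, which are outside the gene counts, took 31.11 to 58.65% of all reads in the epidermis, 53.65 to 65.37% for the cortex and 58.75 to 66.23% in the pericycle. The markers GL2, AED3 and PHO1 had their highest medians in the cell type they mark. GL2, a regulator of non-hair cell fate, lay between 78.37 and 347.4 nuclear CPM in the epidermis (counts scaled to a nuclear total of 1000000 after TMM), the protease gene AED3 between 113.7 and 324 in the cortex, and the phosphate exporter PHO1 between 522.8 and 1530 in the pericycle. The cortex marker CO2 was at 0 in all 9 cortex libraries, and AED3 reached 113.8 in the pericycle. The summed level of the phloem and xylem markers SUC2, APL and XCP1 was 30.59 to 243 in the pericycle, against 0.2617 to 3.008 in the epidermis and 1.138 to 5.949 in the cortex, and their part in the pericycle results below was not tested. With edgeR, more genes differed by replicate number than by label in each cell type. Scaled by the nuclear genes, number 3 differed from number 1 in 846 epidermis genes, 1889 cortex genes and 95 pericycle genes (edgeR quasi-likelihood test, adjusted p under 0.05), against 0, 114 and 0 genes for Pep1 and 0 genes for flg22 in each cell type. DESeq2 called 1898, 2691 and 563 genes for number 3, against 0, 1016 and 56 for Pep1 and 0, 20 and 356 for flg22. The paper, with DESeq2 and without organellar and ribosomal genes, reported more genes for each peptide over the 3 cell types together. Sequencing pools named in the titles followed the cell types and the labels in part. The pools of the epidermis libraries held no cortex or pericycle library. Differences between the epidermis and the other cell types therefore cannot be told apart from pool. In the pericycle no pool held pericycle libraries of 2 labels, so that label and pool cannot be told apart. The cortex flg22 libraries shared a pool with no other cortex library, and of the cortex Pep1 libraries number 3 was in the pool of the cortex mock libraries.

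Mitochondrial transcripts took 28.37% of all gene counts over the 27 libraries (76913383 of 271138507), with single libraries between 21.88 and 41.98%. The share averaged 28.15% ± 2.64 among epidermis libraries, 27.07% ± 3.37 among cortex libraries and 31.97% ± 5.36 among pericycle libraries (SD, n = 9 each). Libraries of the 3 cell types overlapped. Compared at the same label and number, the epidermis was above the cortex in 7 of 9 pairs, by 1.08 percentage points on average, with single differences from -7.104 to 7.498. Without cortex mock 3 the mean difference was 0.429 points. The epidermis was below the pericycle in 8 of 9 pairs, with a mean difference of -3.82 points and a range of -17.79 to 6.54. The cortex was below the pericycle in 8 of 9 pairs as well, with a mean difference of -4.90 points and a range of -11.95 to 0.798. The share is a description without a test. In bulk libraries such as these, fewer mitochondria or cells and less mitochondrial RNA per cell cannot be told apart.

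The order of the cell types depended on which reads stood in the denominator. As a share of all reads in the tables, those without a gene included, mitochondrial counts took 14.29% ± 2.18 among epidermis libraries, 7.40% ± 0.692 among cortex libraries and 7.43% ± 0.922 among pericycle libraries (SD, n = 9 each). On this denominator every epidermis library, from 9.02 to 16.60%, lay above every library of the other cell types, which reached at most 8.86%. The reads aligned to several places, which are part of this denominator, were fewest in the epidermis, with means of 39.24% of all reads among epidermis libraries, 60% among cortex libraries and 63.96% among pericycle libraries, and their part in the order was not tested.

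**Figure D1:**
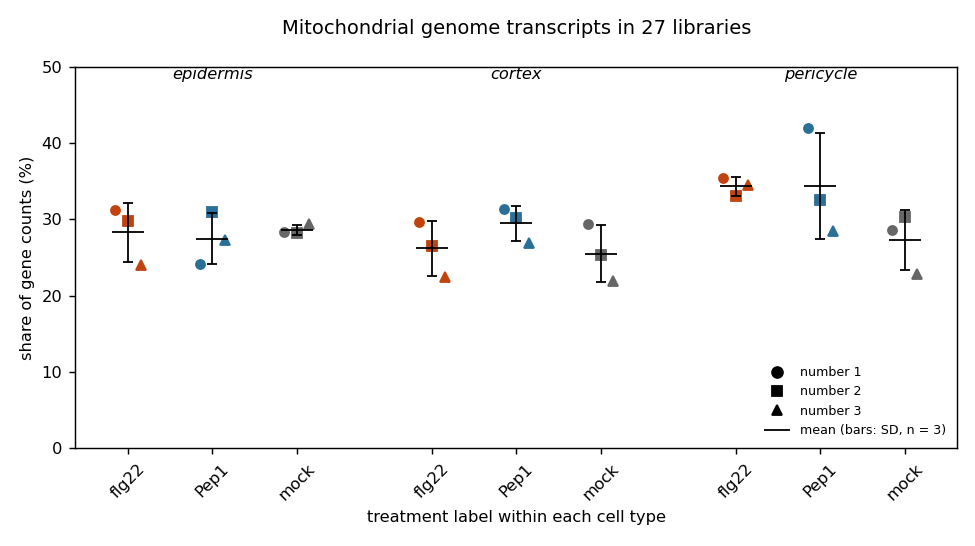
Share of all gene counts that fell on mitochondrial identifiers (percent, vertical axis) in each of 27 libraries, by cell type and label, with the mean and SD of 3 libraries; symbols give the replicate number. Pericycle libraries labelled flg22 lie between 33.02 and 35.45%, above the pericycle mock libraries at 22.83 to 30.36%, and in the cortex number 3 is lowest under each label.

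By label, the share was higher under both peptides than under mock in the pericycle and the cortex, and was lower on average in the epidermis, with mean differences of -0.31 points for flg22 and -1.14 points for Pep1. In the pericycle, the flg22 libraries 1 to 3 had 35.45, 33.02 and 34.44% and the Pep1 libraries 41.98, 32.53 and 28.45%, against 28.62, 30.36 and 22.83% in the mock libraries. The flg22 and mock libraries did not overlap, and each peptide library was above the mock library of its number, by 7.03 points for flg22 and 7.05 points for Pep1 on average. The highest of all shares, in pericycle Pep1 number 1, came from the library with the fewest gene counts, 4172741, and without number 1 the Pep1 difference was 3.89 points. As a share of all reads the Pep1 libraries of the pericycle averaged 7.29% ± 1.36 and the flg22 libraries 7.75% ± 0.730, against 7.24% ± 0.880 in mock (SD, n = 3 each). In the cortex, the Pep1 libraries had 31.30, 30.20 and 26.93% and the flg22 libraries 29.61, 26.51 and 22.50%, against 29.42, 25.28 and 21.88% in mock. Every peptide library was again above the mock library of its number, by 3.95 points for Pep1 and 0.682 points for flg22, but the groups overlapped, and without number 2 the flg22 difference was 0.408 points. As a share of all reads the direction for flg22 turned, with 6.67% ± 0.427 in cortex flg22 libraries and 8.12% ± 0.218 in Pep1 libraries, against 7.41% ± 0.329 in mock. It also turned without ATMG00020, ATMG01380 and ATMG01390 in the numerator, with 1.32% ± 0.227 of gene counts under flg22, against 1.35% ± 0.365 in mock. In the epidermis, flg22 averaged 28.32% ± 3.85 and Pep1 27.49% ± 3.39, against 28.63% ± 0.646 in mock (SD, n = 3 each), with differences of both signs between same-numbered libraries. The mean difference was 2.24 points for flg22 without number 3 and 0.34 points for Pep1 without number 1. Within the pool shared by the Pep1 libraries and mock number 3 of the epidermis, the Pep1 mean was 1.89 points lower than mock.

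By replicate number, number 3 was below number 1 in 7 of 9 pairs, with means of 26.41% and 31.13% and a mean difference of -4.72 points. In the cortex, number 3 averaged 23.77% ± 2.76 and number 1 30.11% ± 1.03, and number 3 was lowest under all 3 labels. In the pericycle, number 3 averaged 28.58% ± 5.81 and number 1 35.35% ± 6.68 (SD, n = 3 each), with number 3 lower in 3 of 3 pairs. In the epidermis, number 3 was higher than number 1 in 2 of 3 pairs, and the means were 26.88% and 27.92%. This order too depended on the denominator: as a share of all reads, number 3 averaged 7.56% ± 0.362 and number 1 7.25% ± 0.909 in the cortex, and the mean difference over the 9 pairs was -0.14 points.

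Of the 152 identifiers, 136 had at least 1 count, 66 were counted in every library, 16 were never counted and 28 had fewer than 10 counts in all. The median library held 10 or more counts for 75 identifiers among epidermis cells, for 59 among cortex cells and for 69 among pericycle cells. The mitochondrial counts were concentrated on very few identifiers: ATMG00020 held 74.04% of them and ATMG01390 20.64%, and both together took 93.74 to 95.34% in each library. ATMG00030 followed with 1.93%, ATMG00513 with 0.593%, ATMG00090 with 0.408% and ATMG01360 with 0.386%. The first 15 identifiers held 99.47% and the other 137 held 0.527%. The 53 identifiers that the reference describes held 0.150%, or 115302 counts. Gene lengths of these identifiers were not at hand, so that these shares are not per length and do not rank expression between genes.

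Scaled within the mitochondrial set, the balance of the 2 leading identifiers followed the cell type. ATMG00020 took 76.15 to 80.19% of mitochondrial counts in the epidermis, with a median of 78.59%, 70.93 to 78.56% in the cortex, with a median of 73.46%, and 68.24 to 72.04% in the pericycle, with a median of 70.05%. Epidermis and pericycle libraries did not overlap. The log2 difference of the mix was 0.16 ± 0.075 (SE) between epidermis and pericycle, with an adjusted p of 0.0929 (edgeR quasi-likelihood test), and was smaller in the other comparisons. As both together took 93.74 to 95.34% of the total, ATMG01390 had to run largely the other way. It held 14.92 to 17.58% in the epidermis, 16.52 to 23.13% in the cortex and 22.89 to 26.15% in the pericycle. Its mix was lower in the epidermis than in the pericycle by a log2 difference of -0.57 ± 0.085 (SE; adjusted p = 2.889e-06), lower in the epidermis than in the cortex (-0.33 ± 0.085, adjusted p = 0.002578), and lower in the cortex than in the pericycle (-0.24 ± 0.085, adjusted p = 0.02202). With ATMG00020 left out of the total, the difference of ATMG01390 between epidermis and pericycle was -0.12 (adjusted p = 0.2483), since ATMG01390 then makes up most of the total itself.

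**Figure D2:**
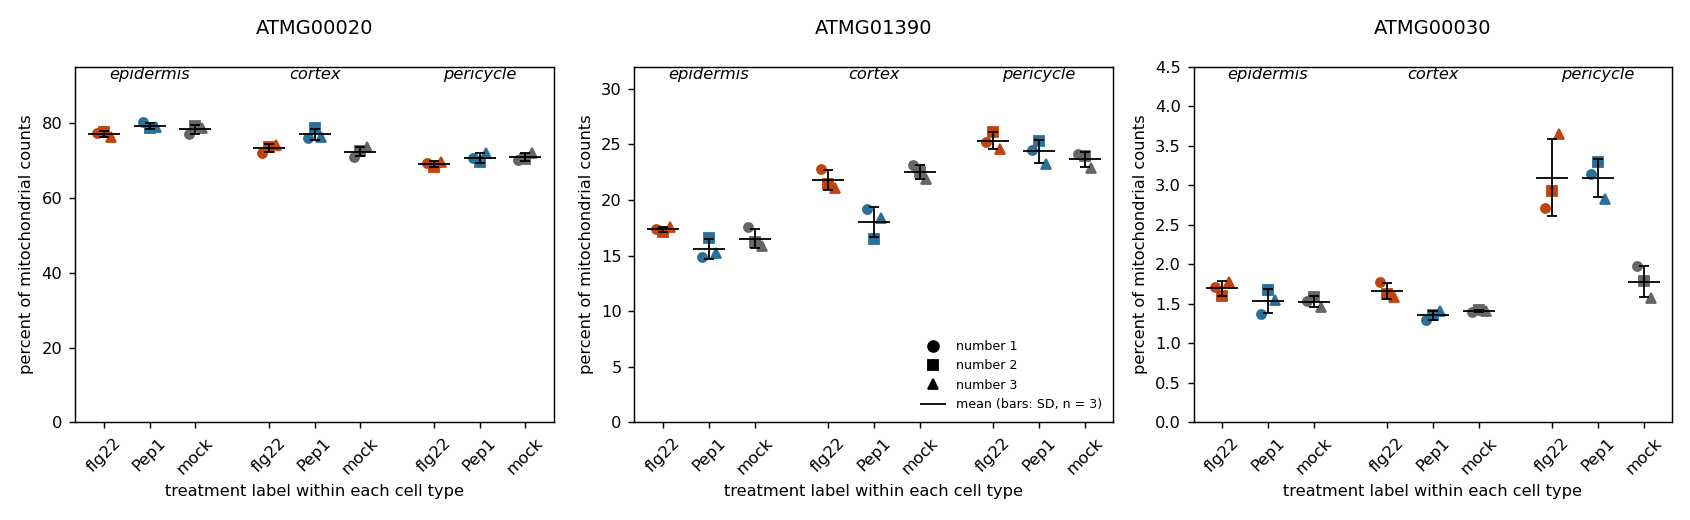
Percent of mitochondrial counts (vertical axes, each from 0) held by ATMG00020, ATMG01390 and ATMG00030 in each library, by cell type and label, with the mean and SD of 3 libraries. ATMG01390 is lowest in the epidermis (14.92 to 17.58%) and ATMG00030 is highest in the pericycle libraries labelled flg22 or Pep1 (2.717 to 3.643%).

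ATMG00030 set apart the pericycle libraries labelled flg22 or Pep1, at 2.717 to 3.643%, whereas the pericycle mock libraries, at 1.579 to 1.975%, overlapped the other cell types. It held 1.579 to 3.643% of mitochondrial counts in the pericycle, with a median of 2.832%, against 1.377 to 1.775% in the epidermis and 1.298 to 1.772% in the cortex. The mix was lower in the epidermis than in the pericycle by -0.71 ± 0.122 on the log2 scale (SE; edgeR adjusted p = 2.038e-05) and lower in the cortex than in the pericycle by -0.82 ± 0.122 (adjusted p = 4.923e-06), whereas epidermis and cortex differed by 0.11 ± 0.121 (adjusted p = 0.5025). In the sequencing pool that held both cell types under Pep1, ATMG00030 took 1.298 and 1.357% in cortex libraries 1 and 2, against 3.142 and 3.3% in pericycle libraries 1 and 2. Against the epidermis the call was lost among mock libraries alone (-0.22, adjusted p = 0.6088) and with ATMG00020 left out of the total (-0.25, adjusted p = 0.06914).

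ATMG00513 took 0.646 to 1.022% of mitochondrial counts in the epidermis, 0.503 to 0.753% in the cortex and 0.262 to 0.566% in the pericycle. Epidermis libraries were all above pericycle libraries, and the log2 difference of the mix was 1.09 ± 0.149 (SE; edgeR adjusted p = 7.396e-07). The cortex minus pericycle difference was 0.67 ± 0.148 (adjusted p = 0.0006563) and the epidermis minus cortex difference 0.42 ± 0.147 (adjusted p = 0.02151), each in the same direction in 9 of 9 matched pairs. Among mock libraries alone these differences were smaller, at 0.64 for epidermis minus pericycle (adjusted p = 0.1112), 0.25 for cortex minus pericycle (adjusted p = 0.5624) and 0.39 for epidermis minus cortex (adjusted p = 0.3749).

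Over the whole set, 72 members passed the filter on low counts in the fit of all 27 libraries, and their counts are read against those over all 17472 genes tested with edgeR. On the level scale, on which every gene is scaled by the nuclear genes, 21 of the 72 rose and 2 fell in the epidermis relative to the cortex, or 31.94% called, where 21% of all genes were called higher and 20.9% lower. Relative to the pericycle, 18 rose and 5 fell in the epidermis, against 23.3% and 22.8% of all genes. In the cortex relative to the pericycle, 15 rose and 16 fell, against 21.7% and 23.2% of all genes. On the mix scale, on which mitochondrial genes are scaled by the mitochondrial total, 19 rose and 7 fell between epidermis and cortex (21.2% and 20.8% of all genes), 17 rose and 4 fell between epidermis and pericycle (23.4% and 22.5%), and 16 rose and 15 fell between cortex and pericycle (21.7% and 23%). Of the members called, 21, 21 and 28 in the same order were called on both scales. The median log2 difference over the members tested was 0.35 on the level scale and 0.30 on the mix scale for epidermis minus cortex, where the medians over all genes were 0.06 and 0.07. Members that passed the filter only through a cell type where they are high had to differ, so these counts are a description.

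The balance of rises and falls against the pericycle depended on the scaling. With TMM factors computed within the mitochondrial set, which do not follow the 2 leading identifiers, 6 members were called higher and 10 lower in the epidermis than in the pericycle, and 4 higher and 23 lower in the cortex than in the pericycle. On the level scale with total gene counts in place of nuclear factors, the calls were 9 higher and 6 lower for epidermis minus pericycle and 4 higher and 19 lower for cortex minus pericycle, while the median over all genes moved to -0.17 and -0.26, against 0.03 and -0.06 with nuclear factors. Among the 9 mock libraries alone, at most 3 members were called in any comparison of cell types on either scale, and the direction against the pericycle turned on the mix scale. Epidermis minus pericycle then had 0 members higher and 3 lower with a median of -0.47, and cortex minus pericycle 0 higher and 1 lower with a median of -0.40, where the medians over all 27 libraries were 0.29 and 0.19.

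**Figure D3:**
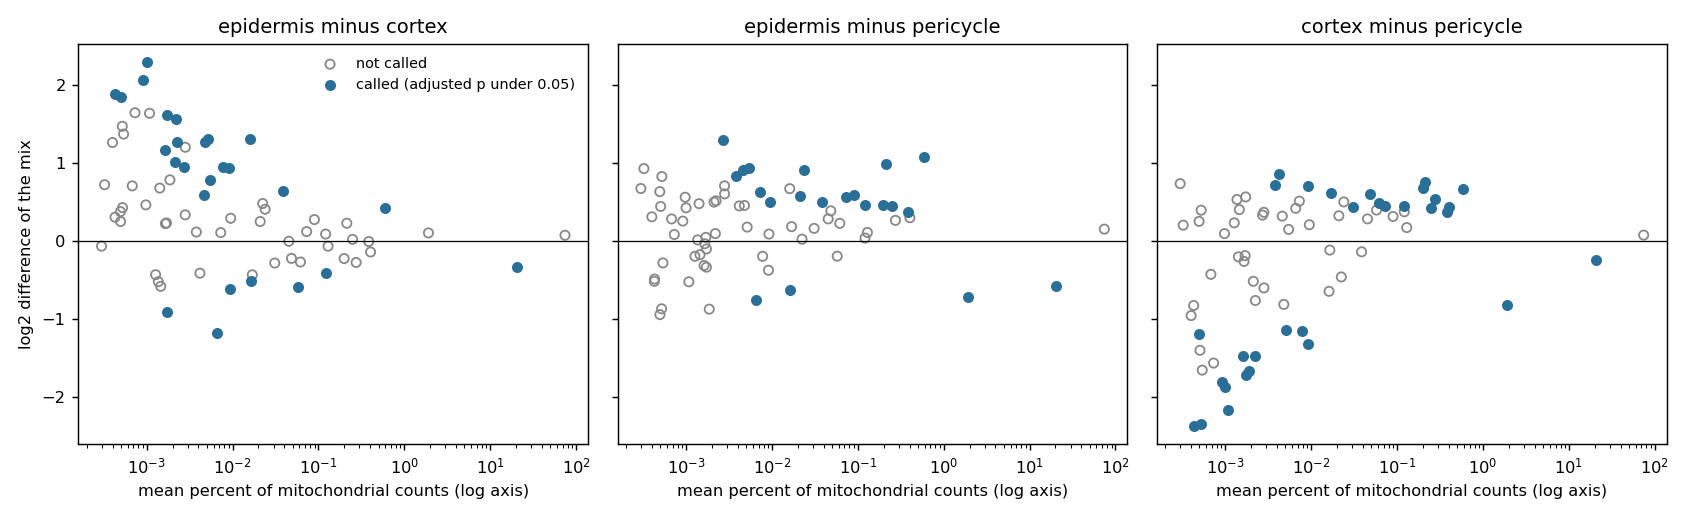
Log2 difference of the mix (vertical axes) of the 72 members tested against their mean percent of mitochondrial counts (horizontal axes, log scale) in the 3 comparisons of cell types; filled points were called with edgeR. Members with under 0.01% of mitochondrial counts show the widest differences, and ATMG00513 is the most abundant member that was called higher in the epidermis in both of its comparisons.

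The ATP synthase makes ATP from the proton gradient across the inner membrane. The identifiers described as its subunits differed between cell types in opposite directions. All stretches of atp1, atp8 and atp9 occurred in the nucleus too, and how reads were divided between the genomes was not tested. The identifier described as ATP synthase subunit 1, ATMG01190, part of the catalytic head, held 77.34 mitochondrial CPM (counts scaled to a mitochondrial total of 1000000) in the median epidermis library (53.41 to 96.22), 42.96 in the cortex (25.48 to 86.35) and 36.76 in the pericycle (18.05 to 75.5). It rose in the epidermis relative to the cortex by 0.79 ± 0.230 in the mix (SE; edgeR adjusted p = 0.006839), in 7 of 9 matched pairs, and relative to the pericycle by 0.94 ± 0.229 (adjusted p = 0.001289), in 9 of 9 pairs. The identifier of subunit 9, ATMG01080, which forms the rotating ring in the membrane, held 64.15 mitochondrial CPM in the median epidermis library (46.52 to 71.8), 35.61 in the cortex (27.55 to 68.46) and 31.84 in the pericycle (14.18 to 59.46). It rose in the epidermis by 0.59 ± 0.236 relative to the cortex (adjusted p = 0.04507) and by 0.91 ± 0.239 relative to the pericycle (adjusted p = 0.002417). Among mock libraries alone the differences from the pericycle were 0.89 for ATMG01190 (adjusted p = 0.1095) and 0.36 for ATMG01080 (adjusted p = 0.5543).

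Subunit 8, ATMG00480, part of the membrane-bound sector of the enzyme, fell in the epidermis instead. Epidermis libraries held 22.01 to 55.79 mitochondrial CPM, against 59.71 to 129.2 in the cortex and 33.23 to 116.4 in the pericycle. Epidermis and cortex did not overlap, and the log2 difference of the mix was -1.18 ± 0.235 (SE; edgeR adjusted p = 0.0001942), the same in direction on the level scale (-1.11, adjusted p = 0.0004724). Relative to the pericycle the epidermis was lower by -0.76 ± 0.236 (adjusted p = 0.009752). None of these 3 subunits was called between cortex and pericycle, and the fourth described subunit, ATMG00410 for subunit 6, had 189 counts in all and was not tested. A further identifier described as ATP synthase 9, ATMG01090, held 18.09 to 135.5 mitochondrial CPM in the epidermis, 3.14 to 71.57 in the cortex and 28.71 to 135.2 in the pericycle. Its mix was higher in the epidermis than in the cortex by 1.32 ± 0.398 (adjusted p = 0.00877), in 7 of 9 matched pairs, and lower in the cortex than in the pericycle by -1.14 ± 0.385 (adjusted p = 0.01792), in 8 of 9 pairs. Within the cortex it held 3.14, 34.8 and 15.43 under flg22 and 16.14, 9.295 and 13.55 under Pep1, against 71.57, 58.65 and 35.86 in mock, without overlap and without a call (adjusted p = 0.8268 and 0.1514).

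Complex I feeds electrons from NADH into the respiratory chain, and 3 of its subunits were described and tested. ATMG01320, described as NADH dehydrogenase 2B and the most abundant of them with 37187 counts, held 312.1 to 839.8 mitochondrial CPM in the cortex, 359.2 to 579.7 in the epidermis and 223.5 to 645.2 in the pericycle. It was higher in the cortex than in the pericycle by 0.61 ± 0.201 in the mix (SE; edgeR adjusted p = 0.01497). ATMG01275, described as NADH dehydrogenase 1A, held 27.51 to 66.21 mitochondrial CPM in the epidermis, 36.43 to 50.96 in the cortex and 7.734 to 49.7 in the pericycle. It was higher in the epidermis than in the pericycle by 0.84 ± 0.277 (adjusted p = 0.01426) and in the cortex than in the pericycle by 0.72 ± 0.274 in the mix (adjusted p = 0.03389), although not on the level scale (0.68, adjusted p = 0.05232). Among mock libraries alone, 0 members were called higher in the mix in the epidermis or the cortex than in the pericycle. The calls of ATMG01320 and ATMG01275 were therefore lost there. ATMG00990, described as NADH dehydrogenase 3, had 236 counts in all and was not called.

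Complex III and complex IV were barely covered by the described identifiers, and identifiers without a description were not assigned to a complex. Apocytochrome b, ATMG00220, had 171 counts and was not tested. Subunit 3 of cytochrome c oxidase, ATMG00730, whose first bases are shown above, had 771 counts, between 5 and 53 in each library, and its differences of 0.47 ± 0.361 for epidermis minus cortex and 0.57 ± 0.363 for epidermis minus pericycle were not called (edgeR adjusted p = 0.3142 and 0.2139). The cytochrome C assembly protein ATMG00960, of the machinery that attaches haem to cytochrome c, held 9.379 to 17.17 mitochondrial CPM in the epidermis, against 15.13 to 34.8 in the cortex, with a mix difference of -0.90 ± 0.341 (adjusted p = 0.03436). It was not called on the level scale (-0.82, adjusted p = 0.06652), without the low-count filter (0.06878), with ATMG00020 left out of the total (0.121) or among mock libraries alone (0.278).

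Of the ribosomal proteins, the identifier of the S12/S23 family, ATMG00980, behaved like subunits 1 and 9. It held 30.11 to 49.32 mitochondrial CPM in the epidermis, 13.01 to 32.65 in the cortex and 3.867 to 29.73 in the pericycle, so that epidermis and pericycle did not overlap. The mix was higher in the epidermis by 0.96 ± 0.294 relative to the cortex (SE; edgeR adjusted p = 0.009806) and by 1.30 ± 0.300 relative to the pericycle (adjusted p = 0.0007794). ATMG00560, listed as the ribosomal protein L2 gene and described as a nucleic acid-binding OB-fold protein, was higher in the cortex than in the pericycle by 0.62 ± 0.196 (adjusted p = 0.01166), with 181.5 to 266.2 mitochondrial CPM in the cortex and 65.08 to 237.1 in the pericycle. Among mock libraries alone ATMG00980 differed between epidermis and pericycle by 0.42 (adjusted p = 0.5695). The call of ATMG00560 was lost there as well, since 0 members were called higher in the mix in the cortex than in the pericycle.

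**Figure D4:**
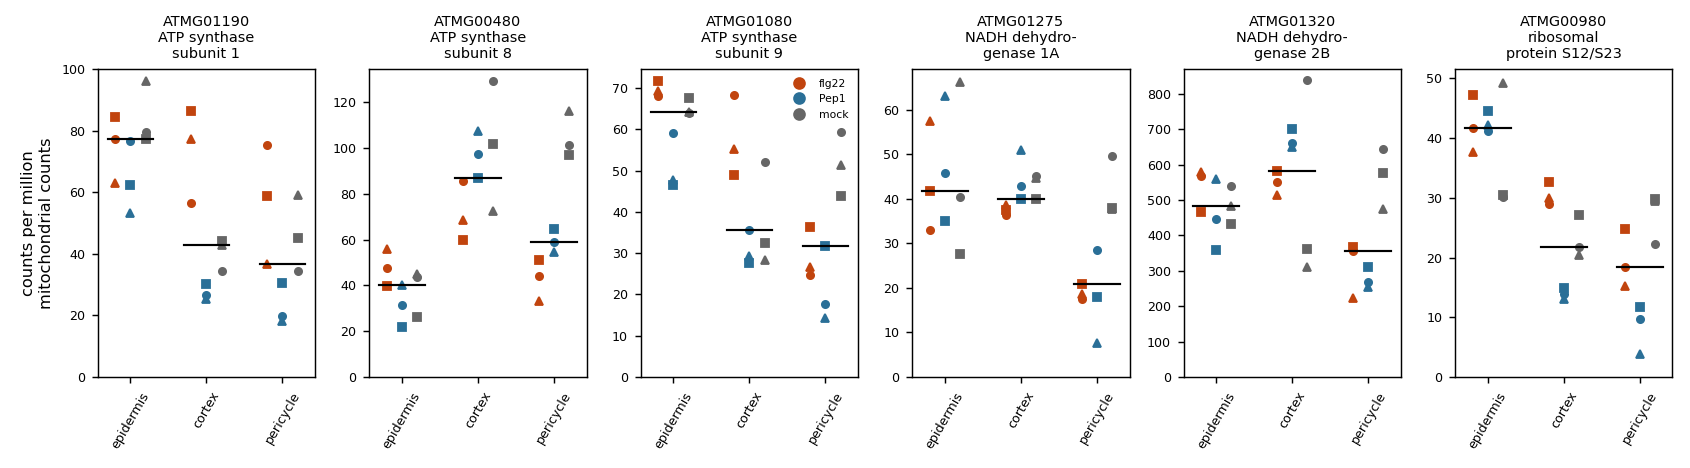
Mitochondrial CPM (vertical axes, each from 0) of 6 described identifiers in each library, by cell type; colours give the label, symbols the replicate number and lines the median of 9 libraries. ATP synthase subunit 8, ATMG00480, is lowest in the epidermis (22.01 to 55.79), where subunits 1 and 9 and ribosomal protein S12/S23 have their highest medians.

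Nuclear copies held more counts than the mitochondrial identifier for some of these genes and fewer for others. The 101 nuclear genes of the tables of which at least 50% recurred in the mitochondrial genome held 475880 counts, 66.97% of them in AT2G07698, the copy of ATP synthase subunit 1. ATMG01190 itself had 4301 counts, against 318708 in AT2G07698. On the level scale ATMG01190 was higher in the epidermis than in the cortex by 0.86 (edgeR adjusted p = 0.002053), whereas its copy AT2G07698 differed by -0.01 (adjusted p = 0.9652). In the epidermis relative to the pericycle both were higher, by 0.98 (adjusted p = 0.0004883) and 0.51 (adjusted p = 0.01006). For cortex minus pericycle the differences were 0.12 for ATMG01190 (adjusted p = 0.6799) and 0.52 for the copy (adjusted p = 0.009655). For cox3 the mitochondrial identifier ATMG00730 had 771 counts and the copy AT2G07687 had 11292, and for apocytochrome b ATMG00220 had 171 and AT2G07727 had 21751. The reverse held for ATP synthase subunit 8, with 4957 counts in ATMG00480 and 218 in AT2G07707, and for NADH dehydrogenase 2B, with 37187 in ATMG01320 and 890 in AT2G07689. How reads were divided between the genomes was not tested.

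Between labels, no member was called in any cell type on either scale with edgeR in the fits of the 9 libraries of a cell type. In the epidermis 74 members were tested, with 0 under an unadjusted p of 0.05 for flg22 and for Pep1 on both scales and 0 calls by DESeq2, where 0% of all genes were called. In the cortex 65 members were tested. For flg22, 6 had an unadjusted p under 0.05 on the level scale and 7 on the mix scale, DESeq2 called 0, and 0% of all genes were called. For Pep1 in the cortex, 16 and 6 had such a p on the level and mix scales, and edgeR called 0.673% and 0.685% of all genes. DESeq2 called 4 and 1 of the members, where it called 6% and 5.98% of all genes. In the pericycle 78 members were tested. For flg22, 3 and 14 had such a p on the level and mix scales, and edgeR called 0% of all genes. DESeq2 called 1 and 2 of the members, where it called 1.96% and 1.97% of all genes. For Pep1 in the pericycle the numbers were 11 and 27, and edgeR called 0% and 0.011% of all genes. DESeq2 called 1 and 9 of the members, where it called 0.308% and 0.374% of all genes. Other edgeR settings made calls between labels. For example, with all 27 libraries in 1 fit, 7 members were called for flg22 and 7 for Pep1 in the pericycle on the mix scale and 1 for flg22 on the level scale, and without the low-count filter 3 were called for Pep1 in the cortex on the level scale.

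The values of single libraries in the pericycle are given for the members that stood apart by label, none of which was called in the fit of these 9 libraries. ATMG00030 took 2.717, 2.924 and 3.643% of mitochondrial counts in flg22 libraries 1 to 3 and 3.142, 3.3 and 2.832% in the Pep1 libraries, against 1.975, 1.783 and 1.579% in mock. All 6 peptide libraries were above all 3 mock libraries. The log2 difference was 0.80 ± 0.198 for flg22 and 0.80 ± 0.198 for Pep1 (SE), with edgeR adjusted p = 0.3915 and 0.7168. For ATMG00030 the flg22 difference was called without the low-count filter (adjusted p = 0.0368) and with all 27 libraries in 1 fit (0.02897), and the Pep1 difference with TMM factors within the set (1.83, adjusted p = 0.03478). ATMG00090 went the other way, with 0.351, 0.287 and 0.258% in flg22 libraries and 0.199, 0.203 and 0.216% in Pep1 libraries, against 0.508, 0.556 and 0.567% in mock. Its log2 difference was -0.87 ± 0.239 for flg22 and -1.40 ± 0.242 for Pep1 (adjusted p = 0.4341 and 0.1173). Of the 15 most abundant members, 12 lay in every Pep1 library below every mock library and 1 above, and 8 lay below and 2 above for flg22. Over all 18167 genes tested, 7.22% lay below and 5.34% above in this way for Pep1 and 8.82% and 5.59% for flg22, where edgeR called 0.011% and 0%. Over the 78 members tested the median log2 difference of the mix was -1.23 for Pep1 and -0.82 for flg22, against -0.06 and -0.17 over all genes. Pool and label cannot be told apart in these 9 libraries.

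Described subunits were lower under the peptides in the pericycle as well, without being called. NADH dehydrogenase 2B, ATMG01320, held 355.7, 367.9 and 223.5 mitochondrial CPM in flg22 libraries 1 to 3 and 267.2, 311 and 255.2 in Pep1 libraries, against 645.2, 577.8 and 474.3 in mock, without overlap (log2 difference -0.86 ± 0.319 for flg22 and -1.02 ± 0.320 for Pep1, SE; edgeR adjusted p = 0.5254 and 1). ATP synthase subunit 8, ATMG00480, held 44.13, 51.31 and 33.23 mitochondrial CPM in flg22 libraries and 58.8, 64.84 and 54.78 in Pep1 libraries, against 101.2, 96.93 and 116.4 in mock. ATP synthase subunit 9, ATMG01080, held 24.72, 36.29 and 26.76 in flg22 libraries and 17.7, 31.84 and 14.18 in Pep1 libraries, against 59.46, 43.97 and 51.37 in mock. For both subunits every peptide library was below every mock library, at an edgeR adjusted p of 0.6322 and 0.8768 for flg22 and 1 for Pep1. In the epidermis the same identifiers overlapped between labels, with 39.7 to 55.79 mitochondrial CPM for subunit 8 under flg22, against 26.03 to 45.18 in mock.

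In the cortex, Pep1 libraries differed from mock in the balance of the leading pair. ATMG01390 held 19.17, 16.52 and 18.38% of mitochondrial counts in Pep1 libraries 1 to 3, against 23.13, 22.53 and 21.88% in mock, without overlap (log2 difference -0.32 ± 0.128, SE; edgeR adjusted p = 0.2409). ATMG00020 held 76.04, 78.56 and 76.11%, against 70.93, 72.47 and 73.41% in mock (log2 difference 0.09 ± 0.118, adjusted p = 0.7578). Pep1 number 3, which shared the pool of the mock libraries, had values like those of the other Pep1 libraries. ATP synthase subunit 1, ATMG01190, was split by both labels in the cortex, with 56.53, 86.35 and 77.45 mitochondrial CPM in flg22 libraries and 26.71, 30.21 and 25.48 in Pep1 libraries, against 34.6, 44.34 and 42.96 in mock. The 3 groups did not overlap, and the log2 differences were 0.84 ± 0.286 for flg22 and -0.56 ± 0.291 for Pep1 (adjusted p = 0.8268 and 0.3757).

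The label differences of pericycle and cortex were then set against each other in 1 fit, a test chosen after the data were seen. With the mix scale and 82 members tested, edgeR called 0 members for flg22 and 0 for Pep1, where 9 and 30 had an unadjusted p under 0.05 and 0.0508% and 0% of all genes were called; DESeq2 was not run on it. ATMG00030 had a log2 difference between the cell types of 0.86 ± 0.264 for Pep1 (SE; adjusted p = 0.4049) and 0.56 ± 0.264 for flg22 (adjusted p = 0.5344), and ATMG00090 one of -1.10 ± 0.297 for Pep1 (adjusted p = 0.3394).

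Between replicate numbers, 3 members were called (4.615% of the 65 tested), near the share of all genes called lower. All were in the cortex on the level scale and lower in number 3 than in number 1. These were ATMG00110 with a log2 difference of -1.11 ± 0.261 (SE; edgeR adjusted p = 0.02053), ATMG00510 with -0.81 ± 0.208 (adjusted p = 0.03092) and ATMG00160 with -0.65 ± 0.181 (adjusted p = 0.04438), each in 3 of 3 pairs, where 4.47% of all genes were called lower and 6.68% higher. DESeq2 called 6 members there and 15.9% of all genes. The count ranged from 0 to 7 when single libraries were left out: it was 0 without mock 3, flg22 1 or flg22 3, 1 without mock 1, mock 2 or Pep1 2, 2 without Pep1 3, 5 without Pep1 1 and 7 without flg22 2. On the mix scale none was called in that comparison (2 with an unadjusted p under 0.05, 1 call by DESeq2), where edgeR called 11.1% and DESeq2 15.8% of all genes.

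The other comparisons of numbers gave 0 calls among members with edgeR on both scales. In the epidermis, 1.67% of all genes were called for number 2 against number 1 on the level scale and 1.67% on the mix scale, and 5.11% and 5.05% for number 3 against number 1, with 5 and 4 members under an unadjusted p of 0.05 for number 3 and none for number 2. DESeq2 called 1 member for number 3 on the level scale, and 11.5% of all genes. In the cortex, number 2 against number 1 called 1.61% of all genes on the level scale and 1.62% on the mix scale, with 6 and 1 members under that p. DESeq2 called 1 member on the level scale, and 3.59% of all genes. In the pericycle, 0.0826% of all genes were called on either scale for number 2 against number 1, with no member under that p, and 0.523% and 0.561% for number 3 against number 1, with 8 members under that p on the level scale and 0 on the mix scale.

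Mitochondria depend on nuclear genes, and 66 of them in 7 lists of respiratory subunits and mitochondrial functions were read beside the mitochondrial set, 60 of which were tested. The lists were chosen with earlier results of these data known. In the cortex relative to the pericycle, 36 rose and 7 fell with edgeR, where 21.7% of all genes were called higher and 23.2% lower. All 7 ATP synthase genes and all 6 genes of complex IV and cytochrome c rose, with 10 of 11 for complex I and 10 of 11 for complexes II and III. The medians of these 4 lists lay between 0.77 and 0.84 on the log2 scale, against -0.06 over all genes and 0.14 over the mitochondrial members.

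Among these subunits ATPQ, subunit d of the ATP synthase, held 1191 ± 104 nuclear CPM in the cortex and 664.6 ± 43.6 in the pericycle (SD, n = 9 each), without overlap (log2 difference 0.84 ± 0.110, SE; adjusted p = 7.139e-07). FRO1, a subunit of complex I, held 449.5 ± 65.0 in the cortex and 206.9 ± 51.3 in the pericycle, also without overlap (1.13 ± 0.144, adjusted p = 5.062e-07). CYC1-1, cytochrome c1 of complex III, was higher in the cortex by 1.24 ± 0.155 (adjusted p = 4.07e-07) and COX5B-1, a subunit of complex IV, by 1.16 ± 0.174 (adjusted p = 6.009e-06). Relative to the epidermis the cortex was higher in part of these genes as well: in the epidermis relative to the cortex 9 of the 60 rose and 22 fell, where 21% of all genes were called higher and 20.9% lower, among those that fell FRO1 (-1.12 ± 0.144, adjusted p = 4.058e-07), CYTC-1 for cytochrome c (-1.33 ± 0.145, adjusted p = 2.58e-08) and QCR7-1 of complex III (-1.25 ± 0.136, adjusted p = 2.249e-08). In the epidermis relative to the pericycle 22 of the 60 rose and 5 fell, where 23.3% of all genes were called higher and 22.8% lower.

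The genes for alternative respiration leaned the same way as the respiratory subunits, with a median of 0.455 for cortex minus pericycle. Those for mitochondrial gene expression and DNA maintenance went the other way, with a median of -1.04. Against the background of 21.7% of all genes higher and 23.2% lower in the cortex relative to the pericycle, 3 of 6 alternative respiration genes tested rose: NDA2 and NDB2, NAD(P)H dehydrogenases that bypass complex I, by 1.89 ± 0.297 and 1.53 ± 0.285 (SE; edgeR adjusted p = 1.089e-05 and 9.309e-05), and the alternative oxidase AOX1A by 1.12 ± 0.283 (adjusted p = 0.002187). Of 14 genes for mitochondrial gene expression and DNA maintenance, 0 rose and 6 fell. Among these were POLIA and POLIB, DNA polymerases of the organelles, with -4.75 ± 0.632 (adjusted p = 9.755e-07) and -3.13 ± 0.623 (adjusted p = 0.000208), the mitochondrial RNA polymerase RPOTM with -1.84 ± 0.526 (adjusted p = 0.005711) and the RNA-processing enzyme PNP with -2.81 ± 0.760 (adjusted p = 0.003854). They were low genes, with POLIA at 0.864 ± 0.879 nuclear CPM in the cortex and 23.7 ± 15.4 in the pericycle (SD, n = 9 each). Of the 5 genes of the retrograde response to mitochondrial dysfunction, 1 fell, a share near that over all genes. This was the carrier gene DIC2 (-0.39 ± 0.137, adjusted p = 0.02189). Between labels none of the listed genes was called with edgeR in any cell type. The unadjusted p was under 0.05 for 0 of 60 in the epidermis under either peptide, for 0 of 58 under flg22 and 7 of 58 under Pep1 in the cortex, and for 4 of 60 under either peptide in the pericycle, and DESeq2 called 2 genes lower under Pep1 in the cortex and 0 elsewhere.

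**Figure D5:**
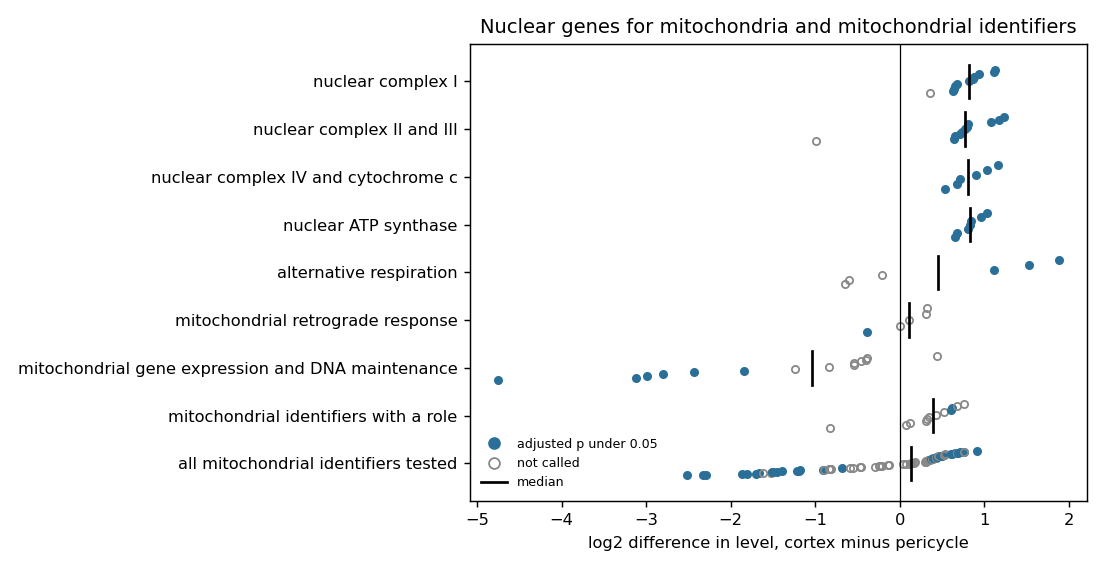
Log2 difference in level between cortex and pericycle (horizontal axis) of each nuclear gene tested in 7 lists and of the mitochondrial identifiers, those with a described role and all 72 tested; filled points were called with edgeR and lines give medians. The lists of respiratory subunits have medians between 0.77 and 0.84, whereas the genes for mitochondrial gene expression and DNA maintenance have a median of -1.04.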

How the data were processed

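RNA was amplified with a kit primed across whole transcripts, and the sequenced reads were aligned to TAIR10 and counted per gene without strand by the authors, whose methods give STAR and LiBiNorm (TopHat2 2.0.14 and HTSeq in the labels). They deposited raw counts in 1 table for each of 27 libraries, with 5 further rows for reads without a gene, which were left out of all fits and used only in the share of all reads. Before their own tests the authors removed organellar and ribosomal genes, which here were kept. Numbers 1 to 3 of a cell type were independent experiments.

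Tests used edgeR 4.0.16 quasi-likelihood fits of all genes in R 4.3.3, with cell type, label and number as terms in 27 libraries, or label and number in the 9 libraries of a cell type. The study compared labels within each cell type with the replicate as a term, and cell types among mock libraries only, a comparison given here as an alternative. The low-count filter was that of filterByExpr (minimum count 10, minimum total count 15). Levels used TMM factors from nuclear genes. The mix used the mitochondrial total for mitochondrial genes. Genes with a Benjamini-Hochberg adjusted p under 0.05 over all genes were called. Deviations of same-numbered libraries correlated over 0.1 across all genes in 8, 7 and 4 of 9 pairs in epidermis, cortex and pericycle, not in every pair, so that a pairing is not settled by the data, and the block follows the study's methods. No pair of libraries agreed within sampling noise. DESeq2 1.42.0, other scalings, filters and subsets were alternatives. Named were the 15 identifiers with the largest mean share, up to 5 called members with the largest rise and 5 with the largest fall in each comparison that moved alike in all matched pairs, and members with a described role; identifiers without a description were named sparingly, and nuclear genes came only from the lists, at most 4 by smallest p for each list and comparison. AT2G07698, AT2G07727 and the other nuclear copies were named beside the identifiers they repeat. Members and lists were chosen with earlier results of these data known. Sequence matches used RefSeq TAIR10.1 with Python 3.11.15.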

Additional observations from a re-analysis of the deposited data

Results flagged for a closer look

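The share of 3 leading identifiers moved in opposite directions in pericycle and cortex under the labels given below, in every same-numbered pair of libraries. ATMG00020 and ATMG01390 together took 93.74 to 95.34% of the total they are scaled by. A fall of one therefore largely sets a rise of the other, and the 2 are not separate observations. Under flg22, ATMG00020 was lower than in mock by a mean of -1.818 percentage points of mitochondrial counts in the pericycle and higher by 0.9281 in the cortex. ATMG01390 was higher under flg22 by 1.669 points in the pericycle and lower by -0.7437 in the cortex, and under Pep1 higher by 0.6956 points in the pericycle and lower by -4.487 in the cortex. ATMG00030 was higher under Pep1 by 1.312 points in the pericycle and lower by -0.05564 in the cortex. In cortex number 3 it took 1.407% under Pep1 and 1.411% in mock. In the test of the difference itself, an interaction added after the data were seen, none of these passed the threshold on the mix scale (edgeR quasi-likelihood): the log2 difference of pericycle minus cortex was -0.06 for ATMG00020 under flg22 (adjusted p = 0.9853), 0.15 and 0.36 for ATMG01390 under flg22 and Pep1 (adjusted p = 0.9306 and 0.7151) and 0.86 for ATMG00030 under Pep1 (adjusted p = 0.4049). Sequencing pool and label cannot be told apart in the pericycle.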

How the results depend on the processing

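The log2 differences followed for named identifiers kept their sign under the alternatives tried. Most were picked because all matched pairs moved alike, so the kept sign was largely set by that choice and is no separate support. The split of calls over the whole set against the pericycle turned with the scaling and among mock libraries. Of the values of named identifiers, 289 stayed on their side of the threshold, 65 lost the call and 3 gained it, all 3 for ATMG00030 in the pericycle, and with single libraries left out 1156 stayed and 41 lost the call. As a share of all reads, the differences were 6.889 points for epidermis minus cortex, 6.864 for epidermis minus pericycle, -0.02511 for cortex minus pericycle, -0.7816 for Pep1 minus mock and -0.1369 for number 3 minus number 1. Without ATMG00020, ATMG01380 and ATMG01390 in the numerator they were -0.3354 for cortex minus pericycle and -0.2319 for number 3 minus number 1. Among mock libraries alone the epidermis minus pericycle share difference was 1.359, and within the sequencing pool that held epidermis libraries of both labels Pep1 minus mock was -1.888. Without pericycle Pep1 1 the pooled share difference of Pep1 minus mock was 1.843 points, against 3.287 with it, and number 2 minus number 1 was -0.1248, against -1.482. The replicate block gave medians of matched differences of 1.473, -2.149 and -5.087 for the same cell type comparisons; fits without the replicate block called 23, 20 and 30 members on the level scale and 26, 21 and 33 on the mix scale and changed no call between labels.

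Counts of members called moved as follows, and the cause was not tested. Among mock libraries alone, where fewer samples enter, 1, 2 and 1 members were called on the level scale and 1, 3 and 1 on the mix scale for epidermis minus cortex, epidermis minus pericycle and cortex minus pericycle. Within 1 sequencing pool, cortex minus pericycle called 3 on the level scale and 5 on the mix scale. Scaling by total gene counts called 15 for epidermis minus pericycle, and the mitochondrial total without ATMG00020 called 35. For cortex number 3 minus number 1 on the level scale, DESeq2 called 6, no filter 6, RLE size factors 5, total gene counts 5, all 27 libraries in 1 fit 0, and fits without single libraries 0 to 7. DESeq2 also called 1 for epidermis number 3 and cortex number 2 against number 1, 4 for cortex Pep1, 1 each for pericycle flg22 and Pep1 on the level scale, and on the mix scale 1 for cortex Pep1, 1 for cortex number 3, 2 for pericycle flg22 and 9 for pericycle Pep1. Without the low-count filter the calls were 3 for cortex Pep1, 1 for cortex number 2 and 1 each for pericycle flg22 and Pep1 on the level scale, and 1 each for cortex Pep1, pericycle flg22 and pericycle Pep1 on the mix scale. TMM within the set called 1 for pericycle Pep1. All 27 libraries in 1 fit called 1 for pericycle flg22 and 1 for pericycle number 3 on the level scale, and 7 for flg22 and 7 for Pep1 in the pericycle on the mix scale. On the mix scale, fits without single libraries called 0 to 1 members for cortex Pep1 (1 without cortex flg22 1), for cortex number 3 (1 without cortex Pep1 3) and for pericycle Pep1 (1 without pericycle flg22 3). A share restricted to mitochondrial genes without nuclear repeats was not run, because the identifiers are not paired with the reference genes.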
